A study of Mus musculus with 14 samples.

Results

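The lysosome is the acidic compartment in which cells break down proteins, sugars and lipids, and 49 genes of it and of its transcriptional control were followed here, out of 55367 gene symbols in each count table. They were taken by symbol from a written list, which sets no threshold on measured values but was drawn up with earlier results of these data known: membrane proteins, cathepsins and other proteases, glycosidases, enzymes and activators of lipid breakdown, ion channels, the 4 MiT/TFE transcription factors, subunits of the proton pump (V-ATPase), peptide transporters and autophagy adaptors. All 49 symbols were present in both tables, and all 49 passed the filter on low counts in both experiments.

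The material was mouse bone marrow depleted of cells that carry lineage markers (Lin-), of wild-type genotype, grown in culture with the cytokines SCF, IL6 and IL3 and studied by sequencing of polyadenylated RNA. In the first experiment cells carried a lentivirus for luciferase, a control protein (3 libraries), or for SETBP1-D868N, a mutant form of the nuclear protein SETBP1 that is found in myeloid leukaemias (3 libraries). In the second experiment the cells of both groups, controls included, are labelled as transduced with SETBP1-D868N, and they received DMSO, the solvent (4 libraries), or 2.5 uM PF-9363, an inhibitor of MYST histone acetyltransferases (4 libraries), for 4 days. The labels do not say whether the libraries of a group came from separate animals, transductions or cultures, so p-values measure the spread between these libraries, which may be technical. Nor do they name the promoter that drives the transgene, the share of cells transduced, the age of the animals or the time after transduction.

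Enzymes of the lysosome work at low pH, which the V-ATPase sets by pumping protons across the lysosomal membrane. Many of their genes are controlled together by TFEB, TFE3 and MITF, helix-loop-helix factors that bind a short palindrome called the CLEAR element, an extended form of the E-box CACGTG. When nutrients are plentiful the kinase mTORC1 holds these factors in the cytoplasm, and when nutrients run short or lysosomes are damaged they enter the nucleus. The fourth factor, TFEC, is found mainly in macrophages and other myeloid cells. In marrow cultures lysosomes are prominent in macrophages, mast cells and osteoclasts.

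The E-boxes of the lysosomal genes are shown first because the factors that read them are among the genes measured. Promoter windows from 250 bases before to 50 bases after a start site were available for 42 of the 49 genes, from RefSeq on build GRCm38.p6. The 7 members that hold the 8-base palindrome TCACGTGA are printed, with Lamp1, whose window held 4 copies of the shorter CACGTG, and with 20 bases kept on each side. Capitals mark the palindrome, and positions count from the start site of that window as 1, with no position 0. A gene can have more than 1 start site. The printed windows of Atp6v1a, Ctsa and Cln3 belong to start sites 443, 901 and 2581 bases downstream of the start of the RefSeq gene. Ctsa and Cln3 also had a window at the gene start, which did not hold the palindrome.
Atp6v0d1, chr8:105566041-105566088, minus strand, at -4: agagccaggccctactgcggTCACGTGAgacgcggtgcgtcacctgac
Atp6v1a, chr16:44139364-44139411, minus strand, at -132: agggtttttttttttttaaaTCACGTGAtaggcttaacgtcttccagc
Cln3, chr7:126583331-126583378, minus strand, at -122: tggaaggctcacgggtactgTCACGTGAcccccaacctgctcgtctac
Ctsa, chr2:164833740-164833804, plus strand, at -13 and 5: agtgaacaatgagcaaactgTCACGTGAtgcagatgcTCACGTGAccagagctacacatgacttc
Ctsd, chr7:142387899-142387946, minus strand, at -99: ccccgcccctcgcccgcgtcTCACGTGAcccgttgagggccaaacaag
Gla, chrX:134601173-134601253, minus strand, at -228 and -195: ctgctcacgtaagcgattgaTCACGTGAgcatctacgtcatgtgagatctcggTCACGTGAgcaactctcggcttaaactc
Mcoln1, chr8:3500453-3500500, plus strand, at -46: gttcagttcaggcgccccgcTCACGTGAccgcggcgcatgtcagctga
Lamp1, chr8:13159080-13159171, plus strand, from -61 to -15: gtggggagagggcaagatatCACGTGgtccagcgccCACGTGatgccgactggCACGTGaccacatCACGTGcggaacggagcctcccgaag

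TCACGTGA was found in 7 of the 42 members with a window (16.7%) and in 1.12% of all 27025 symbols of the table. CACGTG, which lies within it, was found in 14 of the 42 (33.3%) against 8.09% of all symbols. Both words read the same on either strand. The full 10-base CLEAR palindrome, TCACGTGA with a G before it and a C after it, was found in 1 member, Cln3, and in 0.370% of all symbols. The M-box core TCATGTG, a form bound by MITF, was found on either strand in 7 of the 42 (16.7%) and in 4.31% of all symbols. No window of the 4 MiT/TFE genes themselves held any of these words. These are matches of letters in a window and no measurement of binding.

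Before the comparisons, the libraries were checked. Libraries of the SETBP1-D868N experiment held 60147266 to 68730322 counts, and those of the PF-9363 experiment 7083731 to 10359093. Levels are given in CPM, counts scaled to a common library total. A count of 0 (limit of 3 counts) allows up to 0.0436 to 0.0499 CPM in the former and 0.290 to 0.424 CPM in the latter, for counting error only. Setbp1 itself had 5, 6 and 6 counts with luciferase and 23, 20 and 24 with SETBP1-D868N, but 2, 1, 0 and 0 with DMSO and 0 in all 4 PF-9363 libraries. The rise seen with the virus in the first experiment was thus not seen in the libraries labelled SETBP1-D868N of the second. Those had lower depth and a different preparation. The labels do not give the species or sequence of the transgene, so what these counts detect is not known. They cannot decide whether the label holds. That those cells carried SETBP1-D868N rests on the labels. Luciferase replicate 1 stood apart from its group, with a chi-square per degree of freedom of 27.0 and 27.7 against the other luciferase libraries, which differed from each other by 2.28. Without it 7 of the 49 genes were higher and 33 lower with SETBP1-D868N, against 6 and 33 with it.

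Taken as a whole, the 49 genes were lower with SETBP1-D868N and higher with PF-9363. Their counts made up 1.63% to 1.64% of each luciferase library and 1.38% to 1.46% of each SETBP1-D868N library. In the second experiment they made up 1.14% to 1.20% of the DMSO libraries and 3.47% to 3.92% of the PF-9363 libraries. In neither experiment did the groups overlap. Abundant genes weigh most in these sums, and Psap alone had a mean of 4609 CPM with luciferase and 3274 CPM with SETBP1-D868N. All 49 genes summed to 16481 to 16824 CPM with luciferase and 13618 to 14344 CPM with SETBP1-D868N. These are bulk samples, in which fewer cells of a type and less RNA per cell cannot be told apart.

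A gene was called higher or lower at a Benjamini-Hochberg adjusted p under 0.05 in edgeR's quasi-likelihood test, adjusted over all genes tested. With SETBP1-D868N, 33 of the 49 genes were lower and 6 higher, while 10 were not called. Over all 15794 genes tested 22.7% were lower and 24.5% higher, together 47.2%. The median log2 fold change was -0.19 for the 49 genes and 0.0043 for all genes. No change among the 49 reached 2-fold, where 2.48% of all genes were lower and 1.34% higher by that much. The libraries of the groups did not overlap for 42 of the 49, against 56.7% of all genes.

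With PF-9363, 47 of the 49 genes were higher, 1 was lower (Tfec) and 1 was not called (Neu1, a sialidase). Over all 13456 genes tested 36.6% were higher and 39.4% lower, together 76.0%. The median log2 fold change was 1.38 for the 49 genes and -0.038 for all genes. Of the 47, 35 rose at least 2-fold, where 15.8% of all genes did (18.1% fell by as much). The rise was at least 4-fold for 16 and at least 8-fold for 5. The share of all genes was not counted at those 2 sizes, so these counts have no background. Groups did not overlap for 47 of the 49, against 70.3% of all genes. Scaling by library size alone shifted the median of all genes by -0.23 in this comparison, and 45 of the 49 genes were then higher and 1 lower. The same scaling changed the split over all genes from 48.1% to 36.2% higher among called genes. In the first experiment it shifted the median by 0.049 and changed the split from 51.9% to 62.1%, with 8 of the 49 higher and 29 lower.

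**Figure D1:**
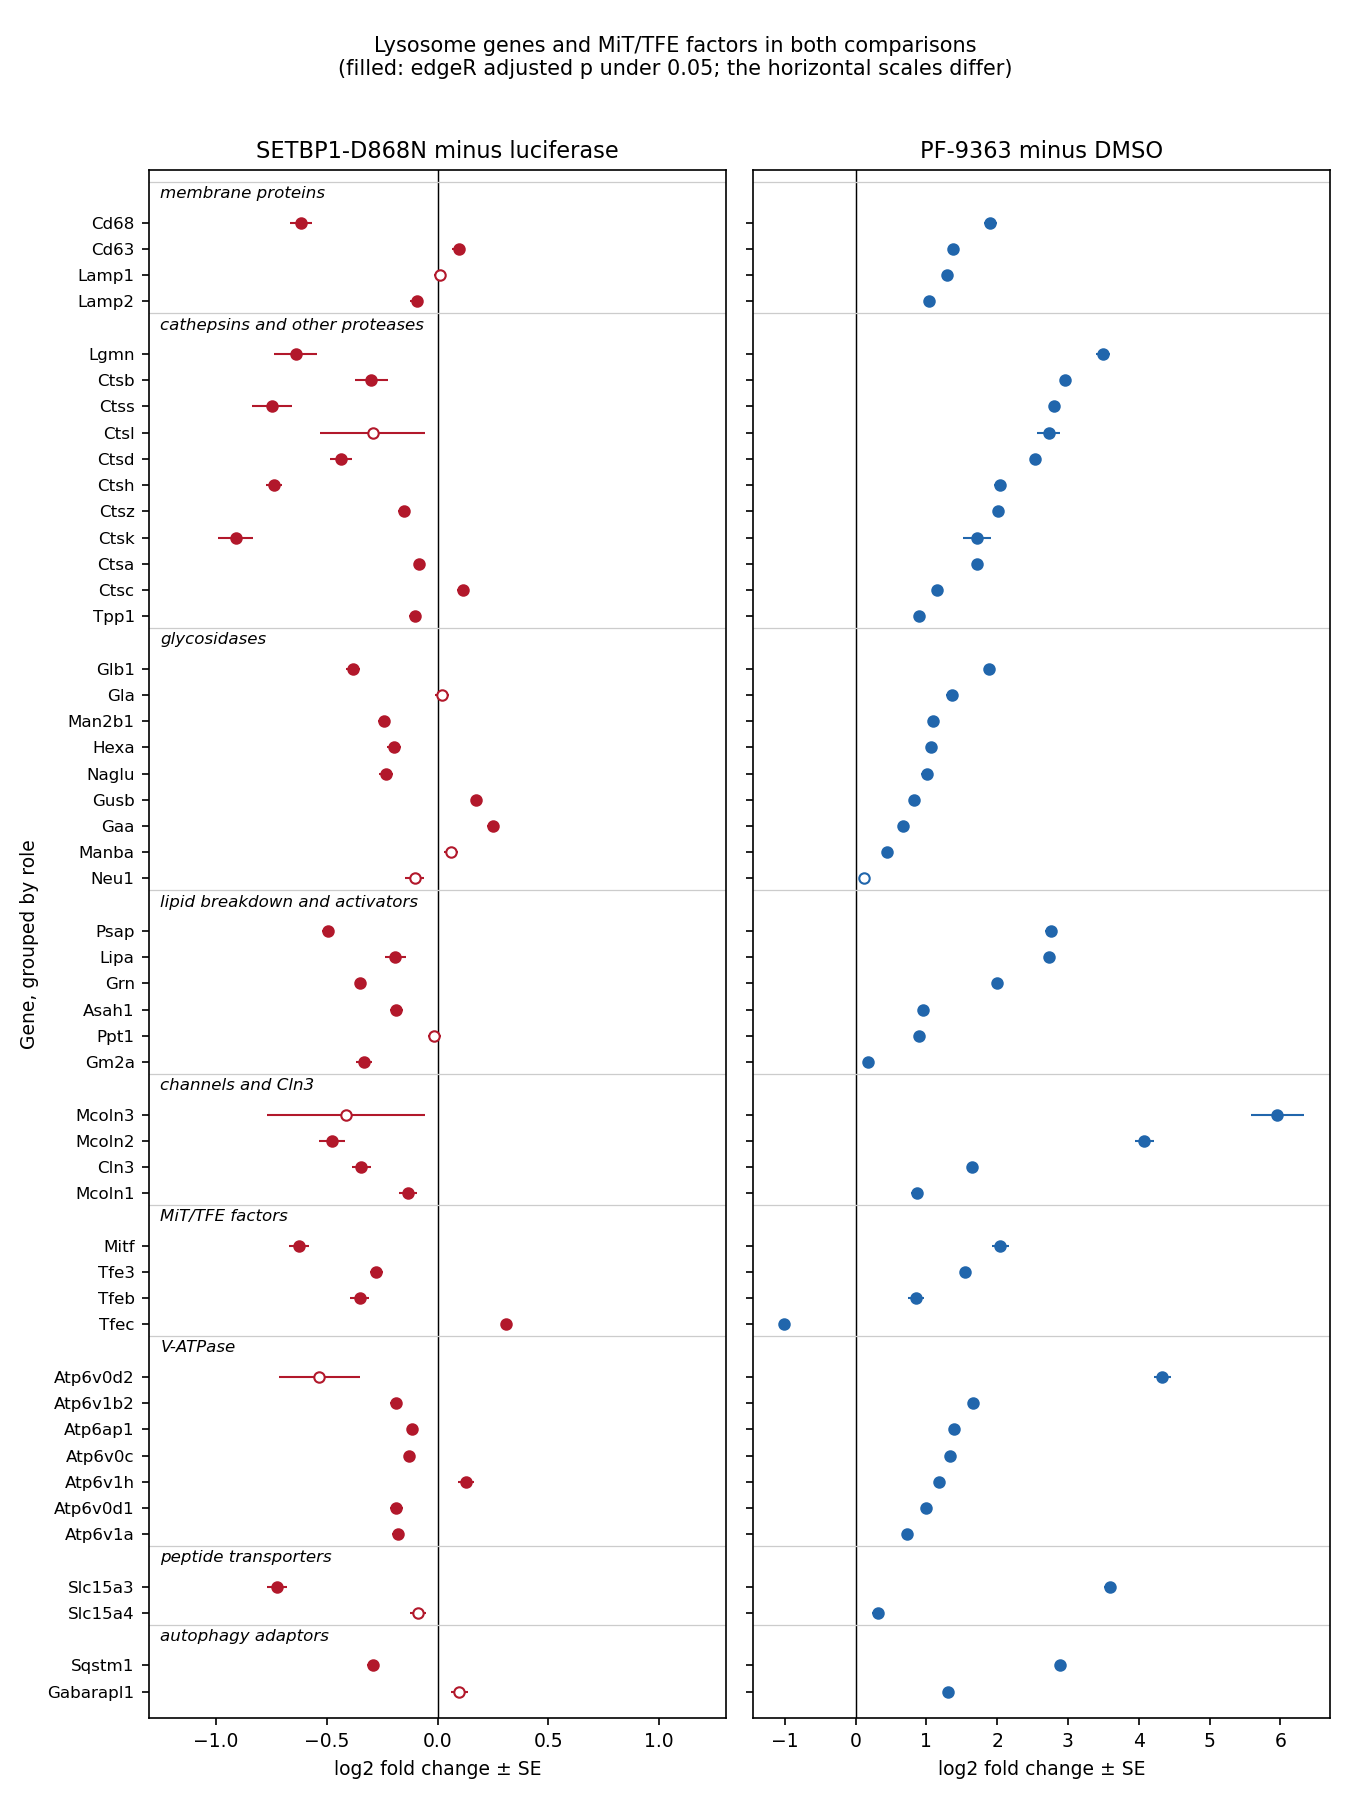
Log2 fold change (horizontal, with its standard error) of each of the 49 genes, grouped by role, for SETBP1-D868N against luciferase (left, red) and PF-9363 against DMSO (right, blue). Filled points passed an adjusted p of 0.05 and open points did not; on the left 33 filled points lie below 0 and 6 above it, and on the right Tfec is the only point below 0.

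The MiT/TFE factors split in the same way in both experiments, with Tfec opposite to the other 3. Tfec (GRCm38, chr6:16833373-16898441) had 268, 268 and 272 CPM with luciferase and 329, 336 and 337 CPM with SETBP1-D868N. Every SETBP1-D868N library was above every luciferase library, and the log2 difference was 0.31 (SE 0.02, edgeR adjusted p = 7.94e-07). With DMSO it had 623, 559, 629 and 591 CPM and with PF-9363 321, 311, 269 and 290 CPM. All 4 treated libraries lay below all 4 controls, a 2.02-fold fall (log2 -1.01, SE 0.06, edgeR adjusted p = 2.14e-14).

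Mitf (chr6:97807052-98021349), the factor of pigment, mast and osteoclast lineages, had 25.0, 26.1 and 25.5 CPM with luciferase and 16.1, 16.5 and 17.1 CPM with SETBP1-D868N. It was 1.54-fold lower with SETBP1-D868N (log2 -0.62, SE 0.04, edgeR adjusted p = 4.82e-07). In the second experiment Mitf had 11.0, 13.8, 8.79 and 11.9 CPM with DMSO and 45.1, 47.1, 51.1 and 44.8 CPM with PF-9363. This 4.13-fold rise (log2 2.05, SE 0.12, edgeR adjusted p = 1.42e-15) was the largest among the 4 factors, and the groups did not overlap in either experiment.

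Tfe3 (chrX:7762560-7775202), a broadly expressed activator of lysosomal genes, had 82.9, 85.5 and 85.7 CPM with luciferase and 69.9, 68.9 and 71.1 CPM with SETBP1-D868N (log2 -0.28, SE 0.03). Its levels were 32.2, 34.5, 39.3 and 33.1 CPM with DMSO and 101, 93.4, 107 and 106 CPM with PF-9363 (log2 1.55, SE 0.08). Tfeb (chr17:47737030-47792419), the factor best known for inducing lysosomes, had 36.4, 37.8 and 35.6 CPM with luciferase and 27.9, 28.4 and 29.9 CPM with SETBP1-D868N (log2 -0.35, SE 0.04). For both genes each SETBP1-D868N library was below each luciferase library. Tfeb had 14.9, 18.0, 20.5 and 18.8 CPM with DMSO and 33.6, 35.9, 32.8 and 28.9 CPM with PF-9363, again with no overlap (log2 0.86, SE 0.11, edgeR adjusted p = 6.18e-08).

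**Figure D2:**
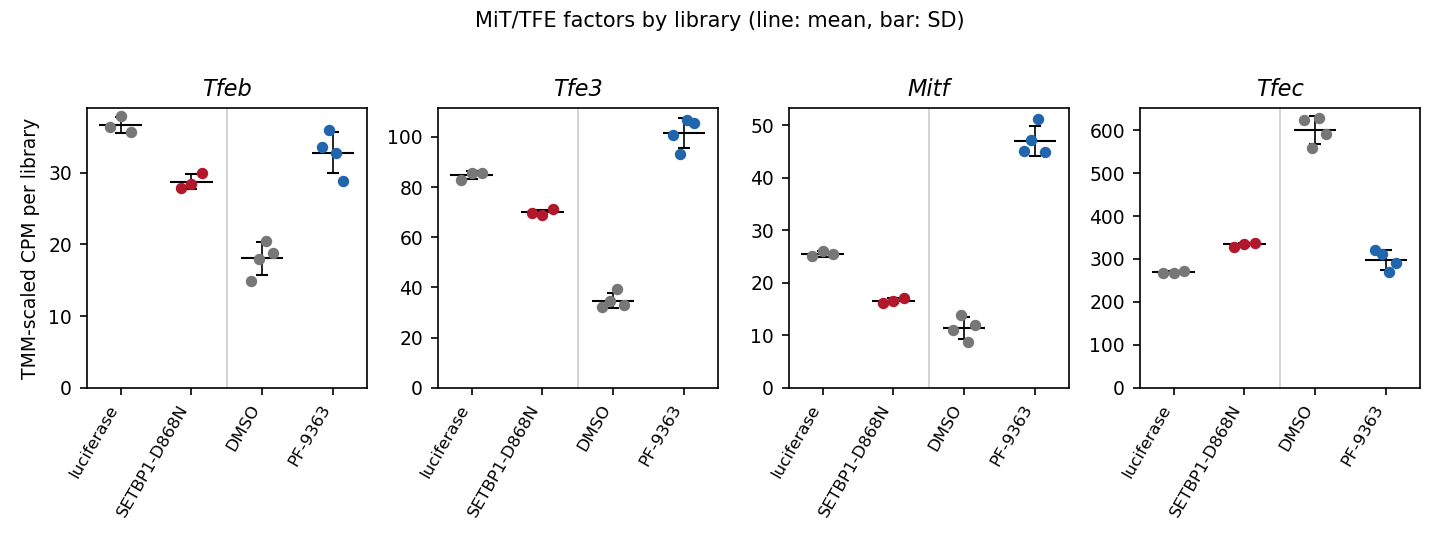
CPM (vertical, linear, from 0) of the 4 MiT/TFE factors in each library, with the group mean (line) and SD (bar), for luciferase and DMSO (grey), SETBP1-D868N (red) and PF-9363 (blue). Tfeb, Tfe3 and Mitf are lower in red than in the grey points beside them and higher in blue, and Tfec is the reverse, near 600 CPM with DMSO (601 on average) and 298 CPM with PF-9363.

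Levels of different genes were compared per kilobase of annotated exon. On that scale Tfec was the most abundant of the 4 factors in all 4 groups. It made up 70.9% ± 0.447 (SD, n = 3) of the summed level of the family with luciferase and 79.6% ± 0.297 (SD, n = 3) with SETBP1-D868N. Its share was 92.4% ± 0.727 (SD, n = 4) with DMSO and 68.5% ± 2.30 (SD, n = 4) with PF-9363. Mitf made up 1.59% ± 0.368 of the family with DMSO (SD, n = 4), the smallest share of the 4, and 9.81% ± 0.975 with PF-9363 (SD, n = 4), more than Tfeb with 7.46% ± 0.562 (SD, n = 4). The exon length counts all annotated exons of a gene, so unused isoforms lower a gene's level on this scale.

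The mucolipins are calcium and cation channels of the lysosomal membrane, and with Cln3, a membrane protein mutated in a childhood lysosomal disease, all 4 were higher with PF-9363. Mcoln3 (chr3:146117450-146141806) was barely detected without the inhibitor, with 0.0990, 0.199, 0.280 and 0.0905 CPM in the DMSO libraries, from 1, 2, 3 and 1 counts. With PF-9363 it had 10.2, 6.82, 14.4 and 13.4 CPM, from 99, 53, 93 and 124 counts. The ratio of scaled counts was 66.6, with a 95% counting interval of 32.0 to 167 (edgeR adjusted p = 1.77e-14). In the first experiment Mcoln3 had 0.551, 0.599 and 0.741 CPM with luciferase and 0.487, 0.718 and 0.211 CPM with SETBP1-D868N, where groups overlapped and no difference was called (log2 -0.41, SE 0.36).

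Mcoln2 (chr3:146149833-146195513), the neighbour of Mcoln3 and a channel known from lymphoid and myeloid cells, had 3.07, 2.79, 4.49 and 4.62 CPM with DMSO and 67.0, 55.4, 68.5 and 64.4 CPM with PF-9363. This was a 16.9-fold rise (log2 4.08, SE 0.13, edgeR adjusted p = 4.93e-21). With luciferase it had 12.7, 11.8 and 11.7 CPM, and with SETBP1-D868N 8.52, 8.88 and 8.61 CPM, 1.39-fold lower (log2 -0.48, SE 0.06). Neither pair of groups overlapped.

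Mcoln1 (chr8:3500457-3515232), the widely expressed member that releases lysosomal calcium, moved least. It had 32.0, 34.0, 34.4 and 34.8 CPM with DMSO and 68.7, 52.6, 62.1 and 63.2 CPM with PF-9363, 1.83-fold higher (log2 0.87, SE 0.09). With luciferase it had 49.3, 52.6 and 51.3 CPM and with SETBP1-D868N 46.9, 48.6 and 44.2 CPM (log2 -0.13, SE 0.04, edgeR adjusted p = 0.0203), a call lost without luciferase replicate 2 (adjusted p = 0.0974), luciferase replicate 3 (0.0645) or SETBP1-D868N replicate 3 (0.0700) and under scaling by library size alone (0.130). The make-up of the family thus differed between groups. Per kilobase, Mcoln1 made up 79.2% ± 3.69 (SD, n = 4) of the 3 channels with DMSO and 26.5% ± 1.38 (SD, n = 4) with PF-9363, whereas Mcoln2 made up 19.9% ± 3.69 and 63.1% ± 1.61.

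The V-ATPase subunits were all higher with PF-9363, 7 of 7, with log2 differences from 0.72 for Atp6v1a to 4.33 for Atp6v0d2. Atp6v0d2 (chr4:19876841-19922605) encodes a tissue-restricted d subunit of the membrane domain, known from osteoclasts and macrophages. It had 18.9, 17.1, 20.1 and 24.9 CPM with DMSO and 384, 348, 453 and 456 CPM with PF-9363, a 20.2-fold rise (SE 0.12 on the log2 scale, edgeR adjusted p = 4.2e-13). Its widely expressed counterpart Atp6v0d1 had 162, 157, 155 and 161 CPM with DMSO and 308, 308, 325 and 325 CPM with PF-9363, 1.99-fold higher. Neither subunit overlapped between the groups, and per kilobase Atp6v0d2 made up 7.75% of the pair with DMSO and 46.0% with PF-9363.

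With SETBP1-D868N 5 of the 7 subunits were lower and 1, Atp6v1h, was higher. Atp6v0d2 had 42.6, 36.4 and 34.3 CPM with luciferase and 26.1, 31.4 and 20.9 CPM with SETBP1-D868N. The groups did not overlap, yet the difference did not pass (log2 -0.53, SE 0.18, edgeR adjusted p = 0.0755). It passed with DESeq2 (0.0148), limma-voom (0.00715) and edgeR without robust estimation (0.00872), and without SETBP1-D868N replicate 2 (0.0270). The 5 lower subunits changed little, from -0.11 for Atp6ap1 to -0.19 for Atp6v1b2 on the log2 scale. Atp6v1h had 85.5, 88.6 and 91.1 CPM with luciferase and 99.0, 98.9 and 91.9 CPM with SETBP1-D868N (log2 0.13, SE 0.04, edgeR adjusted p = 0.0125), a call lost without SETBP1-D868N replicate 1 (0.0525) or replicate 2 (0.0655).

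**Figure D3:**
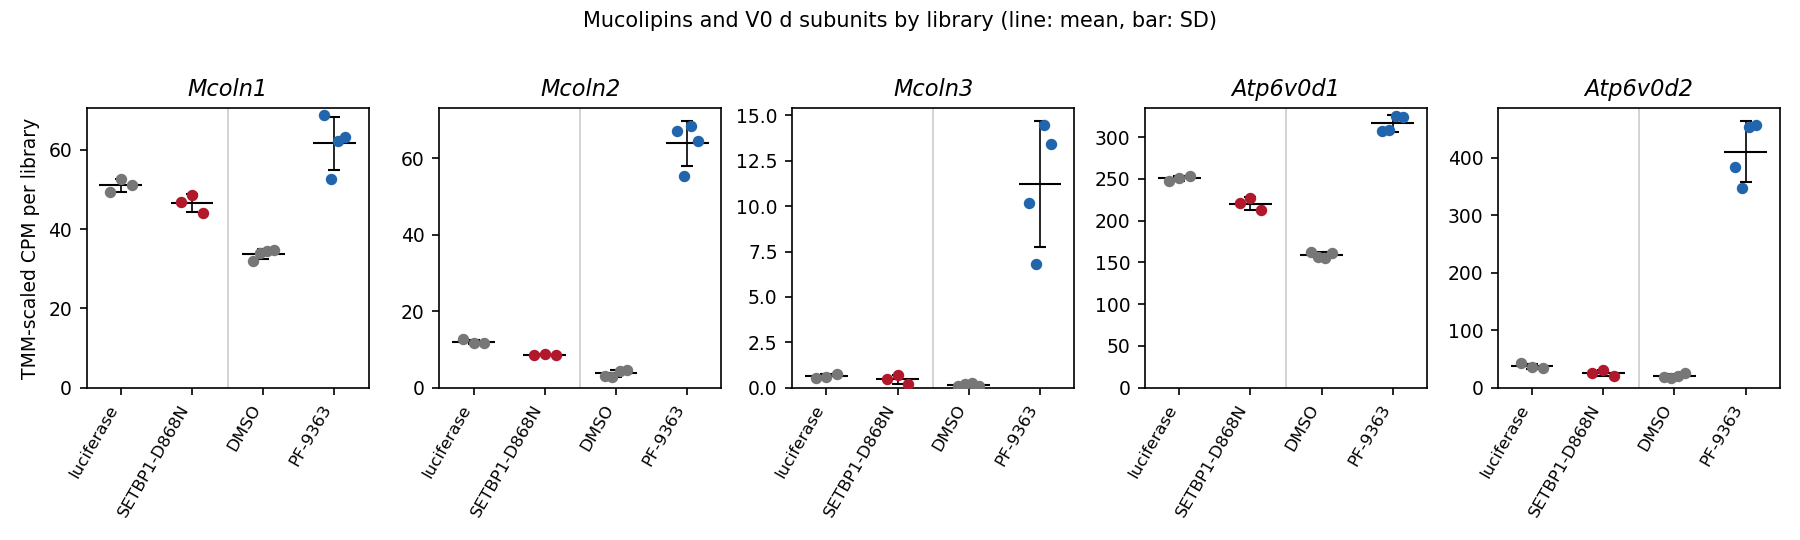
CPM (vertical, linear, from 0, each panel with its own scale) of the 3 mucolipins and the 2 V0 d subunits in each library, with the group mean (line) and SD (bar). Mcoln2, Mcoln3 and Atp6v0d2 average 63.8, 11.2 and 410 CPM with PF-9363 and are far lower in every other group. Mcoln1 and Atp6v0d1 differ less between the 4 groups.

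The cathepsins and other proteases, which cut proteins inside lysosomes, rose in 11 of 11 cases with PF-9363 and fell in 9 of 11 with SETBP1-D868N. Lgmn, the asparagine-specific protease legumain, had 48.4, 53.7, 52.2 and 64.3 CPM with DMSO and 597, 524, 695 and 657 CPM with PF-9363, 11.3-fold higher (log2 3.50, SE 0.10, edgeR adjusted p = 3.83e-15). Ctsb, a cysteine cathepsin, had 636, 621, 649 and 731 CPM with DMSO and 5000, 4476, 5567 and 5444 CPM with PF-9363 (log2 2.96, SE 0.08). Ctss, a cathepsin of antigen-presenting cells, had 87.6, 97.9, 97.8 and 117 CPM with DMSO and 705, 622, 737 and 744 CPM with PF-9363 (log2 2.81, SE 0.08). In each of these the lowest treated library was several times the highest control. Ctsl and Ctsd followed with log2 differences of 2.73 (SE 0.16) and 2.54 (SE 0.07), and the aminopeptidase Tpp1 was the smallest of the 11 at 0.90 (SE 0.06).

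With SETBP1-D868N the largest falls of all 49 genes were among these proteases. Ctsk, the collagen-cutting cathepsin of osteoclasts, had 11.4, 11.5 and 10.8 CPM with luciferase and 5.39, 6.63 and 5.93 CPM with SETBP1-D868N, 1.88-fold lower (log2 -0.91, SE 0.08, edgeR adjusted p = 2.02e-06). Ctss had 380, 365 and 364 CPM against 219, 246 and 196 CPM (log2 -0.75, SE 0.09). Ctsh, an aminopeptidase cathepsin, had 106, 105 and 104 CPM against 66.4, 62.5 and 60.2 CPM (log2 -0.74, SE 0.04). None of these groups overlapped.

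Lgmn had 98.4, 92.4 and 92.9 CPM with luciferase and 60.1, 68.7 and 53.4 CPM with SETBP1-D868N, without overlap (log2 -0.64, SE 0.10). Ctsl was not called, with 153, 134 and 131 CPM against 126, 136 and 79.9 CPM (log2 -0.29, SE 0.24, edgeR adjusted p = 0.382). SETBP1-D868N replicate 3 lay below the others of its group, replicate 2 lay within the luciferase range, and leaving out either did not bring a call. Ctsb was lower (log2 -0.30, edgeR adjusted p = 0.0203), a call lost without SETBP1-D868N replicate 1 (0.0839). Ctsc, which activates the serine proteases of granules, was the only protease called higher, with 515, 545 and 547 CPM against 589, 576 and 574 CPM (log2 0.11, SE 0.03).

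Glycosidases, which trim sugar chains from glycoproteins and glycolipids, changed less. With PF-9363 8 of 9 were higher, with a median log2 difference of 1.00. Glb1, the beta-galactosidase used as a marker of lysosomal mass, led them, with 66.4, 67.0, 61.8 and 69.6 CPM with DMSO and 225, 230, 272 and 254 CPM with PF-9363 (log2 1.89, SE 0.07). Neu1 had 138, 139, 146 and 151 CPM against 164, 145, 168 and 148 CPM, with overlap (log2 0.12, SE 0.06, edgeR adjusted p = 0.0933). Its direction turned under scaling by library size alone (log2 -0.11), and it passed with RLE size factors (adjusted p = 0.0444) and without PF-9363 replicate 2 (0.0323).

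With SETBP1-D868N 4 glycosidases were lower and 2 higher. Glb1 fell from 187, 188 and 180 CPM to 141, 137 and 148 CPM (log2 -0.38, SE 0.03). The 2 that rose were Gaa, the glycogen-cutting acid glucosidase, from 117, 113 and 113 CPM to 137, 134 and 136 CPM (log2 0.25, SE 0.03), and Gusb, the beta-glucuronidase, from 264, 262 and 265 CPM to 303, 294 and 296 CPM (log2 0.18, SE 0.02). Both had separate groups, and both were also higher with PF-9363, at log2 0.67 and 0.83.

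Genes of lipid breakdown rose in 6 of 6 cases with PF-9363 and fell in 5 of 6 with SETBP1-D868N. Psap (chr10:60277627-60302597), the precursor of the saposins that present lipids to hydrolases, had the highest level per kilobase of the 49 genes in all 4 groups. It had 4683, 4646 and 4497 CPM with luciferase and 3243, 3389 and 3191 CPM with SETBP1-D868N, 1.41-fold lower (log2 -0.49, SE 0.03, edgeR adjusted p = 9.22e-08). With DMSO it had 1373, 1471, 1446 and 1569 CPM and with PF-9363 9353, 8988, 10552 and 10651 CPM, 6.75-fold higher (log2 2.75, SE 0.07). Groups were far apart in both experiments.

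Lipa, the lipase for cholesterol esters, rose to a similar extent (log2 2.74, SE 0.08), from a mean of 83.8 to 558 CPM. In the first experiment Lipa was lower (log2 -0.19, edgeR adjusted p = 0.00916), a call lost without SETBP1-D868N replicate 1 (0.0620). Gm2a, an activator for ganglioside breakdown, had 190, 187, 173 and 221 CPM with DMSO and 206, 214, 236 and 214 CPM with PF-9363. Its groups overlapped, and the small difference (log2 0.17, edgeR adjusted p = 0.0274) was lost without DMSO replicate 1 (0.0726), 2 (0.0668) or 3 (0.144) or PF-9363 replicate 3 (0.0811) and turned to -0.06 under scaling by library size alone. With SETBP1-D868N Gm2a was lower (log2 -0.33, SE 0.04).

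The membrane proteins were higher with PF-9363 in 4 of 4 cases. Cd68, the glycoprotein of macrophage lysosomes, had 51.7, 54.3, 53.3 and 65.6 CPM with DMSO and 217, 175, 219 and 232 CPM with PF-9363 (log2 1.90, SE 0.09). It was also the only one of the 4 with a sizeable fall with SETBP1-D868N, from 96.9, 97.2 and 93.1 CPM to 62.4, 67.1 and 58.0 CPM (log2 -0.62, SE 0.05). The structural proteins Lamp1 and Lamp2 rose 2.44-fold and 2.06-fold with PF-9363. With SETBP1-D868N Lamp1 was not called (log2 0.01, SE 0.03), Lamp2 was slightly lower (log2 -0.09, SE 0.03) and the tetraspanin Cd63 slightly higher, with 574, 551 and 549 CPM against 613, 584 and 591 CPM (log2 0.09, SE 0.03). The call of Lamp2 was lost without luciferase replicate 2 (edgeR adjusted p = 0.0517) or 3 (0.0767) and with library-size scaling (0.217), and that of Cd63 without luciferase replicate 2 (0.0730) or 3 (0.0769) or SETBP1-D868N replicate 1 (0.0696).

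The peptide transporters carry peptides and histidine out of lysosomes, and they differed from each other. Slc15a3 had 21.3, 22.2, 20.1 and 19.9 CPM with DMSO and 245, 220, 288 and 256 CPM with PF-9363, 12.1-fold higher (log2 3.59, SE 0.08, edgeR adjusted p = 5.13e-24). With luciferase it had 74.1, 74.0 and 68.0 CPM and with SETBP1-D868N 42.9, 46.0 and 41.9 CPM (log2 -0.72, SE 0.04). Slc15a4 had 27.4, 28.4, 28.2 and 27.5 CPM with DMSO and 37.3, 34.0, 32.9 and 34.4 CPM with PF-9363, a rise of log2 0.32 (SE 0.09, edgeR adjusted p = 0.00267) that did not pass under scaling by library size alone (0.404). It was not called with SETBP1-D868N (log2 -0.09, edgeR adjusted p = 0.0769), but passed as lower without SETBP1-D868N replicate 3 (0.0296).

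Of the autophagy adaptors, Sqstm1 (p62), which brings tagged cargo to autophagosomes, had 236, 234, 220 and 247 CPM with DMSO and 1660, 1529, 1857 and 1907 CPM with PF-9363, 7.43-fold higher (log2 2.89, SE 0.07). It was lower with SETBP1-D868N, with 306, 304 and 311 CPM against 257, 250 and 246 CPM (log2 -0.29, SE 0.03). Gabarapl1, a small protein coupled to the autophagosome membrane, rose with PF-9363 (log2 1.31, SE 0.08) and was not called with SETBP1-D868N (log2 0.10, edgeR adjusted p = 0.0557). It passed as higher under scaling by library size alone (0.00588), with no filter on low counts (0.0285), without luciferase replicate 1 (0.0440) and without SETBP1-D868N replicate 2 (0.0221).

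Several of these genes share transcribed sequence with another gene on the other strand, and the strand setting of the counting is not given in the sources used here. Exons of Ctsl overlap an antisense gene by 1742 bases, those of Slc15a3 overlap Tmem132a by 1541 bases, and those of Ctsb overlap Fdft1 by 774 bases. Further members have shorter overlaps with the other strand, among them Sqstm1 (580 bases), Gabarapl1 (570), Ctsa (495 with Pltp), Cln3 (442) and Slc15a4 (427). On the same strand, Ctsd shares 808 bases with a gene and Ctsl 395 bases with a pseudogene. Atp6v0c and Cd63 have processed pseudogenes that could take or give reads. Values of these genes are uncertain to that extent.

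Set side by side, 33 of the 49 genes were lower with SETBP1-D868N and higher with PF-9363. Among all 12376 genes tested in both experiments 16.8% were. As 47 of the 49 were higher with PF-9363, the count of 33 largely follows from the separate counts of the 2 experiments. It does not show a link between them. Tfec was the only member with the opposite pair of calls, which 18.1% of all genes had. Atp6v1h, Cd63, Ctsc, Gaa and Gusb, 5 genes, were higher in both, as were 4.65% of all genes. A further 9 were higher with PF-9363 and not called with SETBP1-D868N. Of all genes 15.4% had that pair, a share near that of the members. Across the 49 genes the log2 differences had a Spearman correlation of -0.68 and a Pearson correlation of -0.60, against -0.44 and -0.35 across all genes. These describe genes measured in the same libraries, which are not independent, and the experiments share no library.

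**Figure D4:**
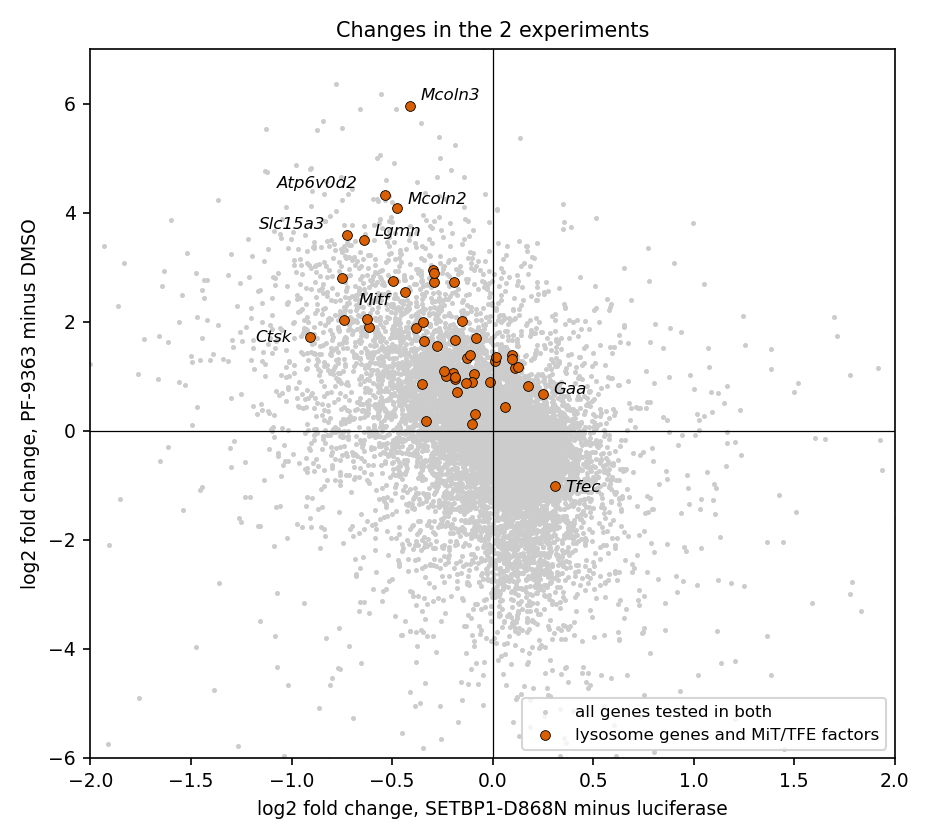
Log2 fold change with SETBP1-D868N (horizontal) against that with PF-9363 (vertical) for the 49 genes (orange) and all other genes tested in both experiments (grey), 55 of which lie outside the axes. Most orange points lie in the upper left, Mcoln3, Atp6v0d2 and Mcoln2 are at the top, and Tfec is the single orange point in the lower right.

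Markers of several cell types moved with the lysosomal genes. The lists are not fully separate. Kit and Gata2 are in both the mast cell list and the stem and progenitor list, and Mmp9 is in both the osteoclast and neutrophil precursor lists. Acp5 is both an osteoclast marker and one of the other lysosomal hydrolases below. Of all genes tested, 22.7% were lower and 24.5% higher with SETBP1-D868N, and 36.6% were higher and 39.4% lower with PF-9363. The summed level of 14 macrophage markers was 918 to 949 CPM with luciferase and 563 to 595 CPM with SETBP1-D868N, and 13 of the 14 were lower and 0 higher. It was 417 to 510 CPM with DMSO and 3313 to 3976 CPM with PF-9363, where 12 of 13 tested markers were higher and 0 lower. Mast cell markers, 12 in number, summed to 4670 to 4960 CPM with luciferase and 3751 to 3858 CPM with SETBP1-D868N, with 9 lower and 3 higher. They summed to 944 to 1185 CPM with DMSO and 5088 to 6219 CPM with PF-9363, with 11 of 11 tested markers higher. The part of these cell types in the changes of the lysosomal genes was not tested.

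Osteoclast markers moved in the same direction, from 591 to 601 CPM with luciferase to 383 to 399 CPM with SETBP1-D868N (6 of 7 tested lower, 0 higher), and from 330 to 390 CPM with DMSO to 966 to 1131 CPM with PF-9363 (5 of 6 tested higher, 0 lower). The largest rise in this list with PF-9363 (log2 2.33) was also the largest in the neutrophil precursor list, which shares Mmp9 with it. Calcr, the calcitonin receptor that marks mature osteoclasts, had 0 counts in all 8 libraries of the second experiment. In the first it had 0 counts with luciferase, but not with SETBP1-D868N. Neutrophil precursor markers, the list with the highest sum, were at 25352 to 26424 CPM with luciferase and 17358 to 19931 CPM with SETBP1-D868N (8 of 12 lower, 4 higher). They were at 19210 to 22494 CPM with DMSO and 17235 to 18682 CPM with PF-9363 (4 of 12 higher, 5 lower). This sum joins opposite changes, since all 4 rose and all 5 fell at least 2-fold, with log2 differences from -9.66 to 2.33. The shares called, 33.3% higher and 41.7% lower, are near those of all genes. Stem and progenitor markers, which fit the label of the cells, were at 1434 to 1461 CPM and 1584 to 1631 CPM in the first experiment (7 of 12 higher, 5 lower) and at 748 to 783 CPM and 992 to 1070 CPM in the second (7 higher, 2 lower). Erythroid and megakaryocyte markers did not follow the lysosomal genes in the first experiment, at 320 to 336 CPM with luciferase and 344 to 371 CPM with SETBP1-D868N (4 of 8 higher, 2 lower). In the second they were at 49.3 to 56.8 CPM with DMSO and 234 to 262 CPM with PF-9363 (4 of 5 tested higher, 0 lower). Stroma and endothelium markers were at 425 to 429 CPM with luciferase, 421 to 440 CPM with SETBP1-D868N (2 of 4 tested higher, 0 lower), 519 to 559 CPM with DMSO and 385 to 423 CPM with PF-9363 (1 of 3 tested higher, 1 lower).

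The wider set of lysosomal and autophagy genes, 157 genes in 6 further lists, followed the same directions less uniformly. With SETBP1-D868N 62 of the 151 tested were lower and 16 higher, with a median log2 difference of -0.072. With PF-9363 105 of the 149 tested were higher and 20 lower, with a median of 0.55. Of all genes tested, 22.7% were lower and 24.5% higher with SETBP1-D868N, and 36.6% were higher and 39.4% lower with PF-9363. These shares are the background for each of the lists below.

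Other lysosomal hydrolases were lower in 19 of 37 cases and higher in 1 with SETBP1-D868N, and higher in 30 of 36 and lower in 3 with PF-9363. The number higher with SETBP1-D868N was 0 to 5 over the alternatives (0 without luciferase replicate 1 or 3 or SETBP1-D868N replicate 1, 2 without SETBP1-D868N replicate 2 or 3). The number lower with PF-9363 was 5 without DMSO replicate 3 and 6 under scaling by library size alone. Ids, a sulfatase for heparan and dermatan sulfate, was 47.4 ± 1.54 CPM (SD, n = 3) with luciferase and 21.4 ± 1.23 CPM (SD, n = 3) with SETBP1-D868N, a larger fall than that of any of the 49 genes (log2 -1.15, SE 0.05). Naaa, an amidase for fatty acid amides, fell with SETBP1-D868N (log2 -0.46) and rose with PF-9363 from 24.7 ± 0.900 to 213 ± 21.4 CPM (SD, n = 4; log2 3.10, SE 0.08). Arsb, another sulfatase, went the other way from most with PF-9363, from 122 ± 9.95 to 18.1 ± 5.93 CPM (SD, n = 4; log2 -2.75, SE 0.19).

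Other lysosomal membrane genes were lower in 15 of 28 cases and higher in 1 with SETBP1-D868N, and higher in 24 of 28 and lower in 1 with PF-9363. The number lower with PF-9363 was 2 with limma-voom and without DMSO replicate 3 or PF-9363 replicate 1, 2 or 3, and 4 under scaling by library size alone. Slc11a1, the metal transporter of phagocyte lysosomes, rose with PF-9363 from 1.36 ± 0.256 to 57.7 ± 2.94 CPM (SD, n = 4; log2 5.39, SE 0.14). Gpnmb, a glycoprotein of melanosomes and macrophages, rose from 179 ± 27.5 to 1878 ± 222 CPM (SD, n = 4; log2 3.39), and the cholesterol exporter Npc1 by log2 2.09. Tpcn1, a cation channel of endolysosomes, fell from 112 ± 5.63 to 33.4 ± 5.70 CPM (SD, n = 4; log2 -1.75). All 12 tested V-ATPase subunits outside the 49 were higher with PF-9363, led by Atp6v0a1 (log2 2.25, SE 0.07), and with SETBP1-D868N 5 of 12 were lower and 1 higher (0 to 2 higher over the alternatives, and 0 without any 1 luciferase library or without SETBP1-D868N replicate 1 or 2).

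Genes that control MiT/TFE factors through mTORC1 or calcineurin were higher in 14 of 24 cases and lower in 6 with PF-9363, and lower in 6 of 24 (25%) and higher in 3 with SETBP1-D868N. The share lower with SETBP1-D868N is near the 22.7% of all genes. Rragd, a small GTPase that presents MiT/TFE factors to mTORC1, had 7.66 ± 0.175 CPM with luciferase and 3.89 ± 0.759 CPM with SETBP1-D868N (SD, n = 3; log2 -0.98, SE 0.12). It had 2.76 ± 0.677 CPM with DMSO and 20.8 ± 2.94 CPM with PF-9363 (SD, n = 4; log2 2.91, SE 0.17). Fnip2 and Flcn, partners that act on these GTPases, rose with PF-9363 by log2 2.29 and 1.63, and Fnip2 fell with SETBP1-D868N (log2 -0.38). The calcineurin subunit Ppp3cb showed the opposite pair, higher with SETBP1-D868N (log2 0.19) and lower with PF-9363 (log2 -0.53).

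Genes of enzyme delivery were mixed, with 7 higher and 7 lower of 25 with SETBP1-D868N (28% each, near the shares of all genes), and 12 higher and 5 lower of 24 with PF-9363, which became 5 and 8 under scaling by library size alone. Igf2r, a mannose 6-phosphate receptor, rose with PF-9363 (log2 1.63), while Gnptab, the enzyme that adds the mannose 6-phosphate tag, fell from 94.7 ± 6.83 to 41.1 ± 0.979 CPM (SD, n = 4; log2 -1.20). Other autophagy genes were lower in 10 of 25 cases and higher in 3 with SETBP1-D868N, and higher in 13 of 25 and lower in 5 with PF-9363. Under scaling by library size alone the number lower with PF-9363 was 8, and the number higher with SETBP1-D868N was 5. Gabarap (log2 1.38) and Map1lc3a (log2 0.94) of the ATG8 family rose with PF-9363 and fell with SETBP1-D868N (log2 -0.32 and -0.57). Wipi1, which binds the forming autophagosome, fell in both (log2 -0.24 with SETBP1-D868N and -1.21 with PF-9363), and Atg12 rose with SETBP1-D868N (log2 0.42) and fell with PF-9363 (log2 -0.87).

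With PF-9363 7 of the 7 members that carry TCACGTGA, printed above, were higher, where 47 of all 49 members were, with log2 differences from 0.72 for Atp6v1a to 2.54 for Ctsd. With SETBP1-D868N 6 of the 7 were lower, where 33 of all 49 were, and Gla was not called (log2 0.02). The PF-9363 count is near that of the members at large. For SETBP1-D868N 7 genes are too few to tell whether they differ from the other members. The calls of Ctsa (edgeR adjusted p = 0.277) and Mcoln1 (0.130) were lost under scaling by library size alone, and that of Ctsa also without luciferase replicate 2 (0.0681). Of the 8 members with the largest rise, Mcoln2 and Lgmn held 1 CACGTG each, at -72 and -49, while the windows of Mcoln3, Sqstm1 and Ctss held none, and windows of Atp6v0d2, Slc15a3 and Ctsb were not analysed here.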

How the data were processed

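RNA of 14 libraries was sequenced in 2 experiments. The deposited values are the authors' raw counts for each gene symbol, in 1 table per experiment. STAR, DESeq2 and the build GRCm38 (mm10) are named, per the submitters' processing notes, and the counting program, annotation and strand setting are not given in the sources used here. The libraries of the first experiment were made from 500 ng of total RNA and those of the second from 100 ng, by different preparations, per the labels' protocols, so the experiments were fitted separately.

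Genes were kept by filterByExpr (minimum count 10, minimum total 15), scaled by TMM and compared between groups with the quasi-likelihood test of edgeR 4.0.16 (glmQLFit with robust estimation) in R 4.3.3, without covariates. Calls were made at a Benjamini-Hochberg adjusted p under 0.05 over all genes tested. Standard errors are the log2 fold change over the root of the F statistic. CPM uses TMM-scaled library sizes, and levels per kilobase use the union of exons in GENCODE M21. The method was tested on simulated data. Their counts were drawn from the fitted model, with far fewer genes changed than were called here, in random directions. That test cannot show how scaling and error rates behave where so many genes change. Alternatives were RLE and library-size scaling, other filters, DESeq2 1.42.0, limma-voom (limma 3.58.1), no robust estimation, the replicate number as a block, and leaving out each library.

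The members and lists were chosen with earlier results of these data known. Each member could be named. Values in every library are given for the MiT/TFE factors, the mucolipins and, in each comparison and direction, the 8 called members with the largest change. Other members shown in this way were chosen after their values were seen. From each further list up to 3 called genes per comparison and direction, with at least 5 CPM in the higher group, could be named. 1 marker list is not reported here.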

Additional observations from a re-analysis of the deposited data

Results flagged for a closer look

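Gabarapl1 had 68.9 CPM in DMSO replicate 4, against 60.5 to 61.7 CPM in the other 3 DMSO libraries. The gap to the nearest library was 0.855 of the range of the group, and chance marks about 1 in 20 groups of 4 in this way. All 4 PF-9363 libraries lay above this value, between 134 and 174 CPM.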

How the results depend on the processing

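The median log2 fold change of the 49 genes was -0.14 with SETBP1-D868N and 1.15 with PF-9363 under scaling by library size alone, and -0.16 without SETBP1-D868N replicate 3 (-0.22 to -0.16 over the libraries left out in turn). Differences changed sign for Ppt1 with SETBP1-D868N (0.034 under library-size scaling, 0.0092 without SETBP1-D868N replicate 3, leave-one-out range -0.036 to 0.0092), for Lamp1 (-0.016 without SETBP1-D868N replicate 2, leave-one-out range -0.016 to 0.023), and for Neu1 (-0.11) and Gm2a (-0.060) with PF-9363 under library-size scaling. None of these passed the test there, and the cause was not tested. With a library left out, 4 to 7 genes were higher and 30 to 34 lower with SETBP1-D868N, and 46 to 48 were higher and 1 lower with PF-9363. The number lower with SETBP1-D868N and higher with PF-9363 was 28 to 34 over all alternatives. Calls or signs changed under at least 1 alternative for 15 of the 49 genes with SETBP1-D868N and 3 with PF-9363. Same-numbered replicates did not deviate together (correlations from -0.097 to 0.0075), and with the replicate number as a block 6 genes were higher and 34 lower with SETBP1-D868N, and 47 and 1 with PF-9363. Of the 49, 34 then had the pair of calls lower and higher. The block brought a call for Atp6v0d2 with SETBP1-D868N (log2 -0.54, edgeR adjusted p = 0.0407) and lowered the count of enzyme delivery genes lower with SETBP1-D868N from 7 to 4. Depth limits Mcoln3, with at most 3 counts in any DMSO library.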
